A study of Mus musculus with 7 samples.

Results

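Blood clotting depends on proteins that the liver makes and secretes. The 31 genes described here encode the coagulation factors, the 3 chains of fibrinogen, the proteins of the contact system, the inhibitors and receptors that restrain clotting, and the proteins that dissolve or protect a clot. They were chosen by name from the 36492 gene names on the array, with 1 probe per gene, the brightest, standing for the gene. Each was compared in livers of 3 WT and 4 SHIVA mice, all C57BL/6 females aged 8 to 12 weeks and fasted for 24 h before the liver was taken. SHIVA mice come from an ENU mutagenesis screen and are heterozygous for a missense mutation in the DNA-binding HMG domain of Sox17, a SOX transcription factor. The mutation is carried by all cells of the animal, every SHIVA liver comes from the same mutant line, and no fed liver is part of the comparison, so that all values refer to the fasted state. Total RNA of each liver was hybridised to 1 single-colour Agilent array without pooling.

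In the clotting cascade, tissue factor exposed at a wound binds factor VII, and the contact system (factors XII and XI, prekallikrein and kininogen) offers a second entry. Both routes lead to factor X and then to thrombin, which cuts fibrinogen into fibrin. Factor XIII then crosslinks the fibrin, antithrombin, protein C, protein S and the tissue factor pathway inhibitor hold the cascade back, and plasmin dissolves the clot. Hepatocytes make most of these proteins, while von Willebrand factor, thrombomodulin and the endothelial protein C receptor come mainly from endothelium. Fibrinogen is also an acute phase protein whose hepatic transcription rises with interleukin 6. Sox17 has been described as a repressor of Fgb during development. By qRT-PCR the authors reported Fgb transcripts several-fold higher in SHIVA than in WT livers. Whether those livers were fed or fasted is not stated for that measurement.

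The fibrinogen chains lie side by side in the mouse genome. In the mm9 build used by the array, the probe for Fgg starts 16.9 kb from that for Fga, and the probe for Fga starts 10.7 kb from that for Fgb, all on chromosome 3. The 250 bases before their annotated starts are shown because the 3 genes were read together below, and capitals mark the hexamer CTGGGA, the core of the type II interleukin 6 response element of acute phase genes. Sequences are from RefSeq on GRCm38.p6, 5′ to 3′ on the strand of the gene.
Fga, chr3:83025903-83026152, plus strand: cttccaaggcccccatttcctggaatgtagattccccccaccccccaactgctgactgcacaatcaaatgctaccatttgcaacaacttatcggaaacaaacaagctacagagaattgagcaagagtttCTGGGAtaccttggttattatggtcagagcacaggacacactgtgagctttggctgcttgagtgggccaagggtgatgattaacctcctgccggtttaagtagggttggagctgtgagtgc
Fgb, chr3:83049864-83050113, minus strand: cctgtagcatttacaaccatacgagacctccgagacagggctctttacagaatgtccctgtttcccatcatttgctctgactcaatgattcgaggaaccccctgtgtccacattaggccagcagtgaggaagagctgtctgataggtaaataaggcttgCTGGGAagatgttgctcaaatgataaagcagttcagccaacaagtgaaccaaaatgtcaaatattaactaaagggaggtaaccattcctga
Fgg, chr3:83007474-83007723, plus strand: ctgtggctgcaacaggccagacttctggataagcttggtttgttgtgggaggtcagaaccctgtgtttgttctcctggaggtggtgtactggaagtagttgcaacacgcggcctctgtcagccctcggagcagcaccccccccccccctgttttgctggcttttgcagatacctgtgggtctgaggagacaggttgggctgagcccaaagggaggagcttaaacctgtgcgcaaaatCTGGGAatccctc

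On either strand, CTGGGA occurred in 11 of the 24 genes with a promoter in the RefSeq table (45.8%), against 27.0% of all 32851 promoters of that length. For each motif a gene was counted if any of its promoters matched, whereas the share of all is per promoter. The 24 genes have 26 promoters, of which 11 held CTGGGA. Each fibrinogen gene held 1 copy, starting 121 bases before the annotated start of Fga, 91 before that of Fgb and 13 before that of Fgg. The STAT3-type letters TTCNNNGAA were found in Fga, Fgb, F9 and Pros1, 4 of 24 genes against 7.02% of all promoters. The SOX core AACAAT was found in 4 of 24 genes, F7, F9, Klkb1 and Tfpi, against 9.42% of all promoters, and in none of the 3 fibrinogen windows. The C/EBP letters TTGCNNAA were found in 6 of 24 genes, among them Fga and Fgb, against 9.56%. These matches describe letters and not bound sites, and their absence from a window says nothing about binding elsewhere.

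All values below are log2 intensities of the array after quantile normalization, and differences are SHIVA minus WT on that log2 scale. Intensities of different probes are not compared as transcript amounts. Of the 31 genes, 28 were tested because their probe was clearly above background on 3 or more arrays, and 26 of these were above it on all 7. Plat, Plau and Gp1ba, which encode tissue plasminogen activator, urokinase and a platelet receptor subunit, were not well above background on any array. F13a1 passed only through SHIVA arrays and Procr mainly through them, and both are described separately below. Both stay in the counts and medians over the 28 genes. Hepatocyte markers were bright in every liver, with a mean log2 intensity over 11 genes between 16.5 and 16.7. The arrays of the 3 WT livers lay in 1 row of a single slide and those of the 4 SHIVA livers in the other, so position and genotype cannot be told apart. The Sox17 probe, at mm9 chr1:4481503-4481562, read 0.69 higher in SHIVA livers (adjusted p = 0.279). It reads the amount of Sox17 RNA and not the mutated base, so it does not check the genotype.

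Most coagulation genes read slightly higher in SHIVA livers, and none passed the test across the array. The fitted difference was positive in 23 of 28 genes (82.1%), where 48.8% of all 20002 genes tested were higher. The median difference was 0.35 for the coagulation genes and −0.01 for all genes. None of the 28 reached an adjusted p under 0.05 in limma, against 0.375% of all genes, and 7 had an unadjusted p under 0.05, against 13.3% of all genes. All 7 were higher in SHIVA, against 7.24% of all genes in that direction. In 3 genes, Kng1, Cpb2 and Tfpi, every SHIVA liver was above every WT liver, against 6.14% of all genes in that direction and 12.2% in either. Among the 26 genes read on all 7 arrays, 21 were higher, 6 of them at an unadjusted p under 0.05.

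**Figure D1:**
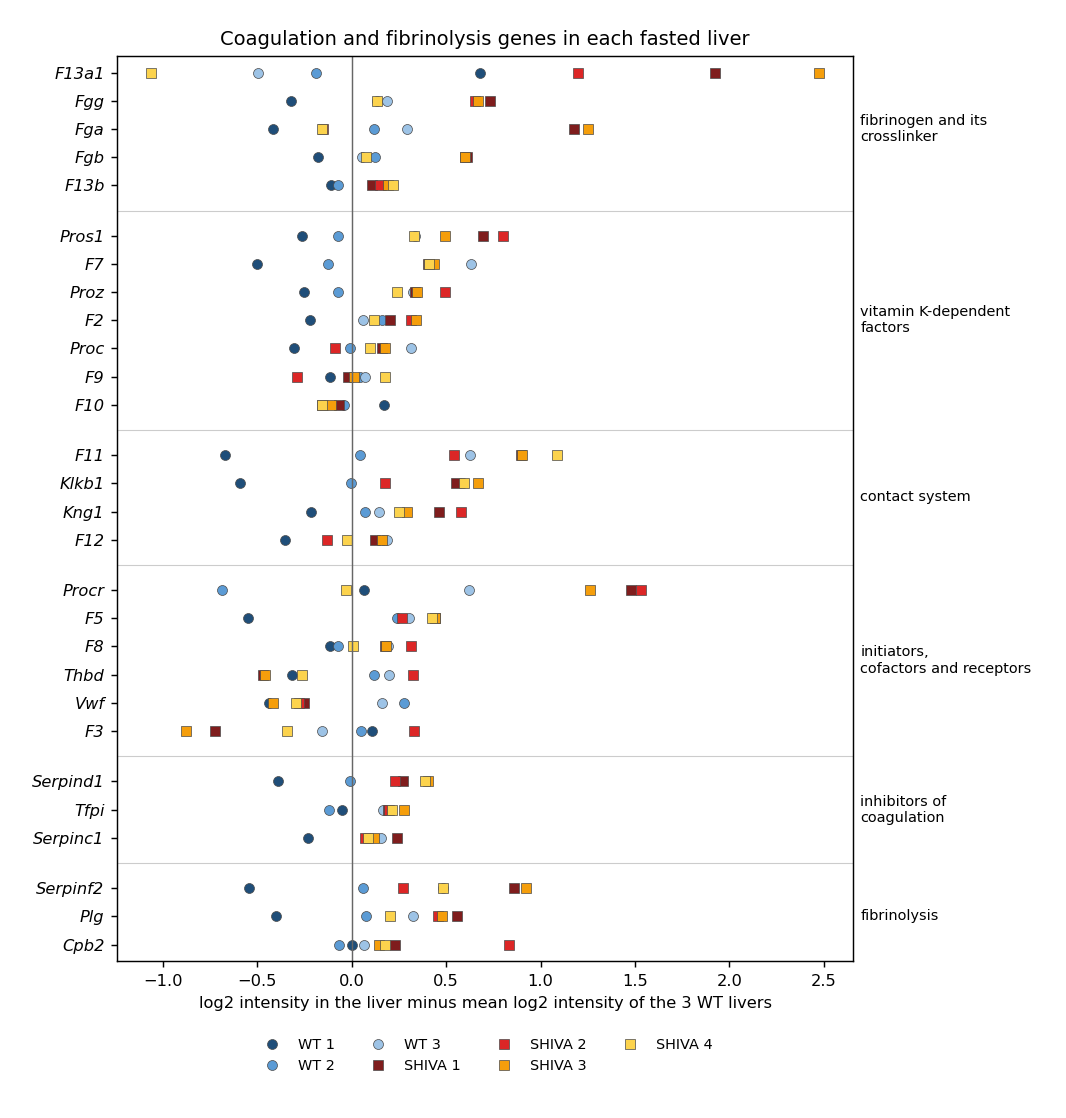
Log2 intensity of each of the 28 coagulation and fibrinolysis genes tested, per liver, minus the mean of the 3 WT livers (x axis), with the genes in rows by role; circles are WT livers and squares SHIVA livers. WT 1 (dark blue) lies leftmost among the WT livers in 22 of 28 genes, and SHIVA squares lie mostly to the right of 0.

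Much of this shift came from 1 WT liver. WT 1 was the lowest WT liver in 22 of 28 coagulation genes (78.6%), while it was lowest in 34.9% of all genes tested. The mean over the 26 genes read on all arrays was 12.3 in WT 1, 12.7 in WT 2 and 12.9 in WT 3, and between 12.8 and 12.9 in the 4 SHIVA livers. WT 3 therefore lay inside the range of the SHIVA livers. Without WT 1, the median difference was 0.18, 21 of 28 genes were higher, and 1 gene had an unadjusted p under 0.05, against 9.65% of all genes. That gene was Vwf, which was lower. Without WT 3, the median was 0.48, 13 genes had an unadjusted p under 0.05, against 19.1% of all genes, and 15 did not overlap, against 28.9%. Without SHIVA 4, 11 genes did not overlap, where 20.8% of all genes did not. These 11 include F13a1, which passed the background filter only through SHIVA arrays, and Procr, which passed it mainly through them.

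Fgb and Fgg read higher in SHIVA 1, 2 and 3 than in any WT liver, though neither passed the test. Fgb, the beta chain, had log2 intensities of 17.48, 17.78 and 17.71 in the WT livers and 18.27, 18.26, 18.26 and 17.73 in SHIVA 1 to 4. Fgg, the gamma chain, had 16.60, 17.05 and 17.10 in WT and 17.65, 17.57, 17.59 and 17.05 in SHIVA. For both genes SHIVA 4 lay among the WT livers. The fitted differences were 0.47 ± 0.18 (SE) for Fgb, a 1.39-fold difference with adjusted p = 0.308 in limma, and 0.55 ± 0.20 for Fgg, 1.46-fold with adjusted p = 0.297. Without SHIVA 4 these were 0.61 and 0.70, with adjusted p = 0.175 and 0.182. Fgb was the 3rd or 4th brightest gene on the arrays of SHIVA 1, 2 and 3 and ranked between 18 and 32 on the others. Quantile normalization ties a value to its rank, and the near-identical Fgb values of those 3 livers are set by neighbouring ranks. With each array scaled to its 75th percentile instead, the difference of Fgb was 0.37 and that of Fgg 0.50. On the authors' own log2 table Fgb differed by 0.59 (adjusted p = 0.153), and every SHIVA liver was above every WT liver. All these array differences of Fgb are smaller than the several-fold one reported by qRT-PCR. Array and qRT-PCR are unlike measures, and the feeding state of the qRT-PCR livers is not stated.

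Fga, the alpha chain, was read by 2 probes whose patterns across the livers differed. They are shown because the choice of probe changes which livers stand out.
Fga brighter probe, mm9 chr3:82835678-82835737: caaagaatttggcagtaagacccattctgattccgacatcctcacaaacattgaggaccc
Fga second probe, mm9 chr3:82837260-82837319: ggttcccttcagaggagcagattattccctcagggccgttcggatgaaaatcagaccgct
The brighter probe gave 13.94, 14.47 and 14.65 in WT and 15.53, 14.20, 15.60 and 14.20 in SHIVA. SHIVA 1 and 3 were above all WT livers and SHIVA 2 and 4 were below WT 2, with a difference of 0.53 ± 0.40 (SE, adjusted p = 0.623) that was 0.33 without WT 1. The second probe gave 11.11, 11.60 and 12.36 in WT and 12.55, 12.25, 12.79 and 12.44 in SHIVA. Here SHIVA 1, 3 and 4 were above all WT livers and SHIVA 2 was just below WT 3, with a difference of 0.82 ± 0.28 (adjusted p = 0.277 over all probes). SHIVA 2 and 4 thus read at WT level on 1 probe of Fga and towards the upper end on the other.

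**Figure D2:**
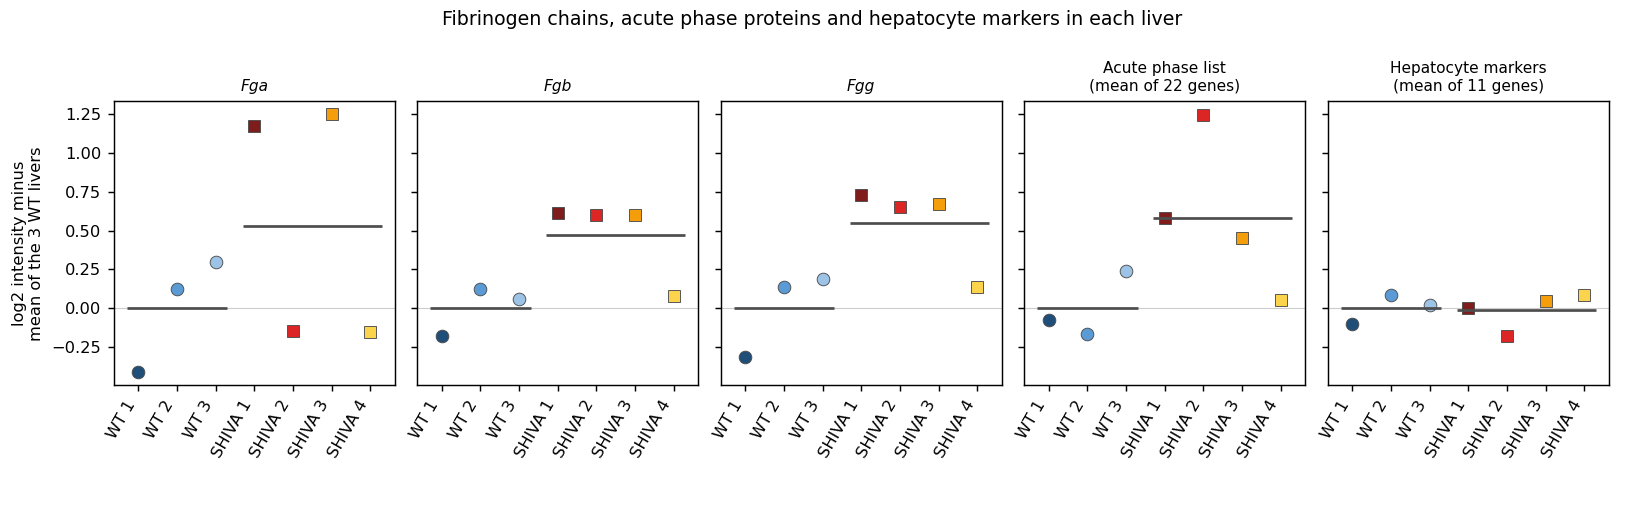
Log2 intensity of Fga, Fgb and Fgg, and the mean log2 intensity of the acute phase list and of the hepatocyte markers, in each liver minus the mean of the 3 WT livers (y axis); horizontal bars are group means. Fgb and Fgg read higher in SHIVA 1, 2 and 3 and near WT in SHIVA 4, the acute phase list is highest in SHIVA 2, and the hepatocyte markers show no such spread.

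The acute phase proteins, among which fibrinogen is counted, were compared on a list of 22 other genes. Of these, 18 read higher in SHIVA livers, 7 at an unadjusted p under 0.05 (31.8%, against 13.3% of all genes), and none passed the test. The mean log2 intensity of the list was between 12.6 and 13.02 in WT livers and 13.4, 14.0, 13.2 and 12.8 in SHIVA 1 to 4, so SHIVA 4 was again the lowest SHIVA liver. Hpx, Apcs, Itih3 and Il1rn, which encode hemopexin, serum amyloid P, an inter-alpha-trypsin inhibitor heavy chain and the interleukin 1 receptor antagonist, did not overlap between the genotypes. These were 4 of 22 genes, all higher in SHIVA, against 6.14% of all genes in that direction. Itih3 had 14.85, 15.19 and 15.15 in WT and 16.14, 16.03, 15.76 and 15.31 in SHIVA (difference 0.75, adjusted p = 0.216). The ends of the list were Saa2, a serum amyloid A gene, at 2.29, which SHIVA 2 carried with 17.36 against 11.98 to 12.82 in the other SHIVA livers, and Orm3 at −0.40. The part of the acute phase genes in the fibrinogen values was not tested.

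Crosslinking factor XIII has an A subunit from F13a1, made by macrophages and megakaryocytes, and a B subunit from F13b, made by hepatocytes. F13a1 was above background on none of the WT arrays and on 3 of the 4 SHIVA arrays, with 4.16, 3.44, 4.71 and 1.17 in SHIVA and 1.74 to 2.92 in WT. The lowest signals counted as above background on the WT arrays averaged 3.47, more than the SHIVA mean of 3.37, so no fold is given. F13b had 11.13, 11.16 and 11.41 in WT and 11.34, 11.39, 11.43 and 11.46 in SHIVA, a difference of 0.17 ± 0.14 (adjusted p = 0.653). Macrophage markers read higher in 11 of 12 genes in SHIVA, against 48.8% of all genes. The list means were 9.52 to 10.6 in WT and 9.88 to 10.8 in SHIVA. Of the 11 genes, 1 had an unadjusted p under 0.05 in limma. The other gene, Cd163, read lower without overlap, with a difference of −1.33 (adjusted p = 0.124). Platelet markers read higher in 5 of 7. Their part in the F13a1 values was not tested.

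Among the 7 vitamin K-dependent genes, which encode thrombin, factors VII, IX and X and proteins C, S and Z, 5 read higher and 2 lower. Pros1, which encodes the cofactor protein S, had 9.42, 9.61 and 10.02 in WT and 10.37, 10.48, 10.17 and 10.01 in SHIVA. SHIVA 1, 2 and 3 were above all WT livers and SHIVA 4 was level with WT 3, with a difference of 0.58 ± 0.19 (SE, adjusted p = 0.251), the lowest adjusted p of the 28 genes. F7 read 0.42 higher, F2 0.24 and Proz 0.35, with adjusted p between 0.424 and 0.537. The F7 values of the SHIVA livers were between 12.58 and 12.61, while those of WT were 11.67, 12.05 and 12.81, so WT 3 was above every SHIVA liver, and without WT 1 the differences were 0.17 for F7, 0.13 for F2 and 0.23 for Proz. Proc (0.087) and F9 (−0.030) differed by less than their standard errors of 0.18 and 0.15, and both changed sign under another setting or without 1 liver.

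F10, which encodes factor X, differed in sign between its 2 probes, though the difference on the brighter probe was within its standard error. The brighter probe, at mm9 chr8:13056119-13056178, holds stretches of 24 bases that also occur in probes of 7 other genes on the array. The stretch below was found in probes of 4 of them and resembles the B1 repeat, a short interspersed element with many copies in the mouse genome. The second probe, like the other probes of the 31 genes, shared no stretch of that length with a probe of another gene.
F10 brighter probe, shared stretch: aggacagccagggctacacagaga
F10 second probe, mm9 chr8:13055774-13055833: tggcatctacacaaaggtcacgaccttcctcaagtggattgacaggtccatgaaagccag
The brighter probe had 18.04, 17.83 and 17.73 in WT and 17.80, 17.71, 17.76 and 17.71 in SHIVA, a difference of −0.12 ± 0.14 (SE, adjusted p = 0.759). The second probe had 14.65, 14.85 and 14.96 in WT and 15.20, 15.11, 15.18 and 15.05 in SHIVA, where every SHIVA liver was above every WT liver, with a difference of 0.32 ± 0.14 (adjusted p = 0.375). How much of the brighter probe's signal came from other transcripts was not tested. With the second probe standing for F10, 24 of 28 genes read higher, against 48.8% of all genes, and 4 did not overlap, all of them higher, against 6.14%. That probe was put in after the values were seen. F7, F10 and Proz are neighbours on chromosome 8, their probes starting 20.9 and 19.8 kb apart, and with that probe all 3 read between 0.32 and 0.42 higher.

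**Figure D3:**
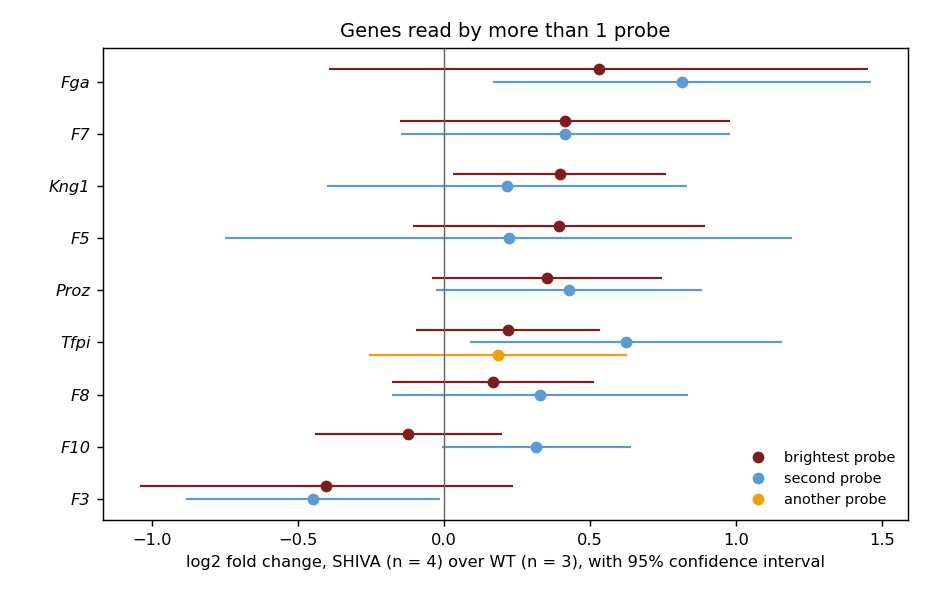
Log2 fold change, SHIVA over WT, with its 95% confidence interval (x axis) for the 9 genes with more than 1 probe tested; colours mark the brightest, second and, for Tfpi, remaining probe. The probes share a sign in 8 genes and differ in sign for F10.

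The contact system read higher in all 4 genes, F11, Klkb1, Kng1 and F12. F11, which encodes factor XI, showed the largest difference among genes read on all arrays, with 9.35, 10.06 and 10.64 in WT and 10.91, 10.56, 10.92 and 11.11 in SHIVA. SHIVA 2 lay just below WT 3, the other SHIVA livers lay above it, and the difference was 0.86 ± 0.29 (SE), 1.81-fold, with adjusted p = 0.258. Without WT 1 it was 0.52, and without WT 3 it was 1.17 with adjusted p = 0.0623, the closest to the threshold of any coagulation gene under the settings run. Klkb1, which encodes plasma prekallikrein, starts 28.3 kb from F11 on chromosome 8 by its probe and read 0.50 higher (adjusted p = 0.477), with 11.85 in WT 1, 13.03 in WT 3 and 12.62 to 13.11 in SHIVA. Without WT 1 the difference of Klkb1 was 0.20. Kng1, which encodes high molecular weight kininogen, had 17.03, 17.32 and 17.40 in WT and 17.71, 17.83, 17.54 and 17.50 in SHIVA. The genotypes did not overlap, and the difference was 0.40 ± 0.16 (adjusted p = 0.326). A second, dimmer Kng1 probe overlapped between the genotypes, with a difference of 0.22. F12, which encodes factor XII, differed by 0.033 ± 0.18 and turned negative without WT 1 or without SHIVA 3.

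Among the initiators, cofactors and receptors, 3 of 6 genes read lower and 3 higher. F3, which encodes tissue factor, had 6.90, 6.84 and 6.63 in WT and 6.06, 7.12, 5.91 and 6.45 in SHIVA, so SHIVA 2 was the highest of all livers and the other SHIVA livers were below WT, with a difference of −0.40 ± 0.28 (SE, adjusted p = 0.587). A dimmer F3 probe, above background on 4 arrays, differed by −0.45 and did not overlap. Vwf, which encodes von Willebrand factor, had 8.16, 8.87 and 8.75 in WT and 8.34, 8.31, 8.17 and 8.30 in SHIVA, with WT 1 below all SHIVA livers and a difference of −0.31 ± 0.19 (adjusted p = 0.537). Without WT 1 the genotypes did not overlap for Vwf. Thbd, which encodes thrombomodulin, differed by −0.22 ± 0.23, and the cofactor genes F5 and F8 by 0.39 and 0.17, which without WT 1 were 0.12 and 0.11. Procr, which encodes the endothelial protein C receptor, was above background on 1 WT and 3 SHIVA arrays, with 3.68, 2.93 and 4.23 in WT and 5.09, 5.14, 4.87 and 3.58 in SHIVA (adjusted p = 0.338).

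Over 18 endothelial markers, 12 read higher, with list means of 8.95 to 9.03 in WT and 8.99 to 9.10 in SHIVA. In whole liver, the number of endothelial cells and the RNA per cell cannot be told apart.

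The inhibitors of coagulation read higher in 3 of 3 genes by small amounts. Serpinc1, which encodes antithrombin, differed by 0.13 ± 0.15 (SE), with 16.28, 16.59 and 16.67 in WT and 16.75, 16.58, 16.63 and 16.60 in SHIVA. Serpind1, which encodes heparin cofactor II, differed by 0.32 ± 0.19 (adjusted p = 0.526). Without WT 1 these differences were 0.011 and 0.13. Tfpi, which encodes the tissue factor pathway inhibitor, had 6.14, 6.07 and 6.36 in WT and 6.38, 6.39, 6.47 and 6.40 in SHIVA. Its lowest SHIVA value was 6.38 and its highest WT value 6.36, so the groups were separated by little, and the difference was 0.22 ± 0.14 (adjusted p = 0.539). Of its 2 other probes, 1 also did not overlap, with a difference of 0.62, and the other did, with 0.19.

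**Figure D4:**
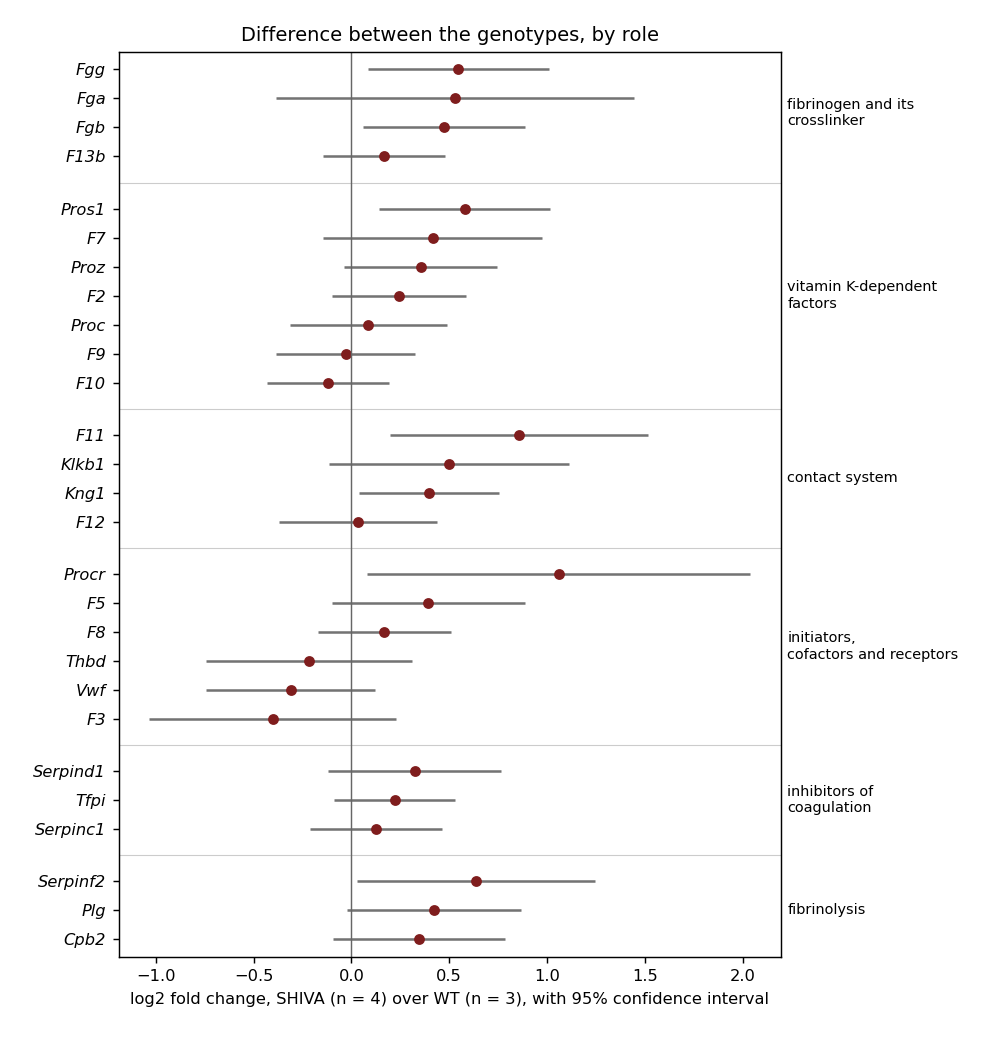
Log2 fold change, SHIVA (4 livers) over WT (3 livers), of 27 of the 28 genes tested (points; F13a1, above background on no WT array, is left out) with 95% confidence intervals (bars), grouped by role. Intervals of Fgb, Fgg, Pros1, F11, Kng1, Procr and Serpinf2 lie above 0, Procr having been above background on 1 WT and 3 SHIVA arrays, none lies below 0, and none of the genes passed after adjustment over all genes.

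The fibrinolysis genes with a measured signal also read higher, in 3 of 3. Serpinf2, which encodes the plasmin inhibitor alpha 2-antiplasmin, had 13.72, 14.33 and 14.75 in WT and 15.13, 14.54, 15.19 and 14.75 in SHIVA. SHIVA 1 and 3 were above all WT livers, SHIVA 4 was level with WT 3, and the difference was 0.64 ± 0.27 (SE, adjusted p = 0.358). Plg, which encodes plasminogen, had 14.88, 15.36 and 15.60 in WT and 15.84, 15.74, 15.76 and 15.48 in SHIVA, a difference of 0.42 ± 0.20 (adjusted p = 0.401). Without WT 1 the differences were 0.36 for Serpinf2 and 0.22 for Plg. Cpb2, which encodes a carboxypeptidase that protects fibrin from plasmin, had 13.97, 13.90 and 14.03 in WT and 14.19, 14.79, 14.11 and 14.14 in SHIVA. All SHIVA livers were above WT, with SHIVA 2 standing well above the rest, and the difference of 0.35 (adjusted p = 0.493) was 0.18 without SHIVA 2.

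The wider pathway was read on a list of 36 other genes, of which 30 were tested. Of these, 22 read higher and 8 lower, 10 had an unadjusted p under 0.05 (33.3%, against 13.3% of all genes), and none passed the test. Of the 30, 4 did not overlap between the genotypes, where 12.2% of all genes did not. S100a10, whose protein with annexin A2 binds plasminogen at the cell surface, had 11.21, 10.78 and 10.37 in WT and 9.59, 9.62, 10.03 and 10.14 in SHIVA, without overlap and with a difference of −0.94 ± 0.23 (adjusted p = 0.164).

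Habp2, which encodes a protease that activates factor VII and urokinase, differed by 0.62 ± 0.20 (SE) and F2r, which encodes a thrombin receptor, by 0.42 (adjusted p = 0.372), both without overlap. At the ends of the other lists, Fgl1, a fibrinogen-like protein of hepatocytes, differed by 0.98, Plaur, the urokinase receptor, by 0.83, and Serpine2, protease nexin 1, by −1.05. Serpine2 was near background, read above it on 2 WT arrays and 1 SHIVA array only. It had 3.78 to 4.64 in WT and 2.53 to 3.88 in SHIVA, which overlap (adjusted p = 0.301 in limma). The 6 genes of the vitamin K cycle and of factor secretion ranged from 0.18 for Ggcx, the carboxylase that modifies the vitamin K-dependent factors, to −0.36 for Vkorc1l1, and 3 of them read higher. 

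Among 18 regulators of hepatic fibrinogen that were tested, 7 read higher. Of the 18, 2 did not overlap, where 12.2% of all genes did not. Ppara, the nuclear receptor of the fasting response, had 12.19, 12.61 and 12.33 in WT and 11.66, 11.75, 11.64 and 11.78 in SHIVA, without overlap and with a difference of −0.67 ± 0.15 (SE, adjusted p = 0.132). Nr3c1, the glucocorticoid receptor, did not overlap either, with a difference of 0.23 (adjusted p = 0.488). Socs3, a target of interleukin 6 signalling, was highest on the list at 0.73, with 7.92 to 8.02 in WT and 8.49, 9.65, 7.94 and 8.69 in SHIVA (adjusted p = 0.411). Il6 itself was not well above background on enough arrays to be tested. The part of these regulators in the fibrinogen values was not tested.

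Hepatocyte markers read higher in 5 of 11 genes, with a median difference of −0.03. Red cell markers read higher in 4 of 4 genes, with list means of 10.7 to 11.1 in WT and 11.2 to 11.8 in SHIVA, and stellate and fibroblast markers in 5 of 10. Biliary markers read higher in 1 of 4 genes and pancreas markers in 3 of 3 tested of 9. Their part in the coagulation values was not tested.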

How the data were processed

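Liver RNA of 3 WT and 4 SHIVA mice was read on 7 single-colour arrays. The authors deposited scanner intensity files from Agilent Feature Extraction 10.5.1.1 (detrended, without background subtraction, not normalized between arrays) and a table of log2 values that the methods describe as quantile normalized. From the deposited processed intensities, log2 values were taken and brought to equal quantiles across the 7 arrays, outlier spots were set to missing (120 to 163 spots per array), spots of a probe were averaged, and the probe with the highest mean stood for its gene. Probe names were updated through RefSeq accessions on GRCm38.p6 for 26413 probes, and positions are mm9 as in the files. On each array 44.5% to 48.7% of probes exceeded background clearly, and 0 spots were saturated. Depth has no meaning for arrays, so their number limits the precision.

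Genes above background on at least 3 arrays (20002) were fitted with lmFit and eBayes in limma 3.58.1 under R 4.3.3 with a threshold of 0.05 on p-values adjusted by Benjamini-Hochberg. The model was tested on simulated data. The labels do not say whether the livers came from separate cages or litters, so p-values measure the spread between these mice. Members and lists were chosen with earlier results of these data known. All 31 members are named. In the lists of other pathway genes, regulators and acute phase proteins, named genes are those without overlap and the highest and lowest difference of each list, while Il6 and the genes far apart in 1 liver were named after their values were seen. Some genes that this rule would name are not reported here. Marker lists are given as summaries, apart from Cd163, which was named after its value was seen. Alternatives were 75th percentile scaling, the mean signal, the log2 table of the authors, normexp (offset 50), other filters on dim probes, the mean of all probes, a block for the replicate number, array weights, the methods' t-test and leaving out each liver. F10 by its second probe, and the counts of higher and non-overlapping genes under all alternatives, were added after seeing the data. Promoters were searched on both strands in the 250 bases before the start for the letters given in the text. An HNF1 palindrome and TATAAA were searched as well. The palindrome was found in 0 of 24 genes, against 3 of all 32851 promoters, too rare for its absence to be informative. TATAAA was found in 2 of 24 genes, against 12.4% of all promoters. Motif letters can overlap one another.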

Additional observations from a re-analysis of the deposited data

Results flagged for a closer look

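The values of the 4 SHIVA livers were searched for 1 liver far from the other 3, over 98 genes, the 28 coagulation genes tested and the lists of other pathway genes, regulators and acute phase proteins. For independent genes, chance flags about 1 in 20 groups, or 4.9 of 98, and 9 were found. The genes were read in the same livers and are not independent, so these counts cannot be weighed against each other. Among the coagulation genes, Fgb was 17.73 and Fgg 17.05 in SHIVA 4, below 18.26 to 18.27 and 17.57 to 17.65 in the others. The near-identical Fgb values of the other SHIVA livers are set by neighbouring ranks in quantile normalization. Cpb2 was 14.79 in SHIVA 2 against 14.11 to 14.19. F5 was 11.44 in SHIVA 2 against 11.61 to 11.62, and F7 was 12.61 in SHIVA 3 against 12.58 to 12.59, gaps that are small beside the spread of the WT livers.

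Outside the coagulation genes, SHIVA 2 stood above the other SHIVA livers in Saa2 (17.36 against 11.98 to 12.82), Saa3 (9.95 against 8.83 to 8.97), Foxa1 (7.46 against 7.09 to 7.13) and Creb3l3 (13.71 against 13.37 to 13.40). No cause of these values was tested.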

How the results depend on the processing

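No coagulation gene was called under any of the 18 alternatives, although the number of genes called across the array moved widely. That number was 75 as reported, 141 with the mean signal, 141 with the authors' table, 13 without a filter on dim probes, 32 with the replicate number as a block, 0 with the methods' t-test (2295 at an unadjusted p under 0.05) and 392 with array weights. It lay between 3 and 423 when 1 liver was left out, the lowest without WT 1 and the highest without WT 3. Of 499 refitted values of single coagulation genes, 489 kept their direction and 10 reversed. F9 was 0.054 with the mean signal, 0.054 with normexp and 0.055 with the authors' table. F10 was 0.10 with the mean of its probes and 0.32 by its second probe. With 1 liver left out, F9 lay between −0.097 and 0.057 (above 0 without WT 3 or SHIVA 2), F12 between −0.14 (without WT 1) and 0.12, and Proc between −0.068 (without WT 1) and 0.25, while F12 was also below 0 without SHIVA 3. The number of coagulation genes without overlap, 3 as reported, lay between 3 and 15 when 1 liver was left out, with 5 without WT 1 (21.3% of all genes did not overlap there), 5 without WT 2 (17.5%), 6 without SHIVA 2 (16.7%), 11 without SHIVA 4 (20.8%) and 15 without WT 3 (28.9%). The 11 without SHIVA 4 include F13a1, which was above background only on SHIVA arrays, and Procr, which was above it mainly on them. Cpb2 overlapped with 75th percentile scaling and Kng1 with the mean of its probes. Between 21 and 25 genes read higher under the alternatives. Scaling to the 75th percentile moved the median of all genes to −0.02. The causes were not tested.

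WT and SHIVA mice share replicate numbers in the labels, but the samples share only a number. Deviations of same-numbered livers correlated at −0.049, 0.013 and 0.24. The best partner was SHIVA 2 for WT 1, SHIVA 4 for WT 2 and SHIVA 3 for WT 3, the same-numbered liver only in the last. With the replicate block the median of the 28 genes was 0.39. The precision is limited by 3 livers against 4.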
